A study of Mus musculus with 4 samples.

Results

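CD4 T cells of the injured mouse spinal cord were taken from single-cell RNA sequencing of CD45+ immune cells, and 330 of them were found among 20407 cells of the 2 injured libraries, 164 at 3 dpi (days post injury) and 166 at 14 dpi. A barcode counted as a CD4 T cell if 600 or more genes were detected in it, no more than 10% of its UMIs were mitochondrial, and it held at least 2 UMIs of Cd3e, Cd3d and Cd3g together, at least 1 UMI of Cd4, and no UMI of the 6 genes Cd8a, Cd8b1, Trdc, Cd79a, Csf1r and Csf3r. A UMI (unique molecular identifier) marks 1 captured RNA molecule. The levels of these 10 genes therefore describe the choice of cells and are not results.

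Helper T cells carry the coreceptor CD4 and read peptides held by MHC class II, whereas CD8 T cells read MHC class I. After activation, helper cells can take up different programmes, which are named after their leading transcription factors or products: Th1 cells (T-bet, interferon-γ), Th2 cells (GATA3, IL-4), Th17 cells (IL-17) and regulatory T cells (Foxp3), which restrain the other T cells. T cells are rare in the uninjured cord and enter it with the other blood leukocytes after trauma.

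All mice were C57BL/6 and about 3 months old. The injured groups had a contusion at T10 and were killed at 3 or 14 dpi, and sham mice had the laminectomy alone. CD45+ cells were sorted, and their 3′ ends were sequenced on the 10× Chromium platform. Actinomycin D (ActD), an inhibitor of transcription, was present during dissociation in the 3 dpi and 14 dpi libraries and in 1 of the 2 sham libraries (sham ActD), and the other sham library was made without it (sham standard). Each condition was 1 library. CD4 T cells of both sexes, hence of more than 1 animal, were found in the 3 libraries that held CD4 T cells, but cells cannot be assigned to animals. Without replicate libraries, the spread between animals is unknown and no difference was tested. All intervals are at 95% and cover counting error only.

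The libraries held 125270696 UMIs in 10763 barcodes at 3 dpi and 129935880 UMIs in 11631 barcodes at 14 dpi. The CD4 T cells had a median of 4031.5 UMIs and 1512 genes at 3 dpi, and of 4844.5 UMIs and 1817 genes at 14 dpi, and their summed counts came to 801401 and 860802 UMIs. Levels are given below in CPM, the UMIs of a gene per 1000000 UMIs of such a sum. The matrices of the sham standard and 3 dpi libraries carry Cell Ranger version 3.0.1 in their headers, those of sham ActD and 14 dpi version 3.1.0. Time after injury and software version can therefore not be told apart in any comparison of 14 dpi with 3 dpi.

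The label held against genes that had played no part in the choice. At least 1 UMI of the T cell receptor constant genes Trac, Trbc1 or Trbc2 was found in 161 of 164 cells at 3 dpi and in 166 of 166 cells at 14 dpi. Zbtb7b, the factor that commits T cells to the CD4 lineage, was higher in CD4 than in CD8 T cells of the same library by 1.09 (0.00 to 2.49) at 3 dpi and by 2.53 (1.67 to 3.57) at 14 dpi on the log2 scale. Cd40lg, the helper signal to B cells and Mφ, was higher by 2.72 (1.43 to 4.81) and 4.72 (3.47 to 6.79).

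The cells near each threshold were not the same in number at the 2 times. Exactly 1 Cd4 UMI was held by 81 of the 164 members at 3 dpi and by 65 of the 166 at 14 dpi, and exactly 2 CD3 UMIs by 11 and 1. Just outside the rule, the most numerous were the 99 barcodes at 3 dpi and 136 at 14 dpi with no Cd4 UMI and every other criterion met, and 7 barcodes at 3 dpi and 1 at 14 dpi had a single CD3 UMI with every other criterion met. Among the barcodes with at least 2 CD3 UMIs and a Cd4 UMI, 353 at 3 dpi and 361 at 14 dpi, a UMI of Csf1r, the receptor that marks Mφ and microglia, was found in 154 and 172. For 87 and 64 barcodes, 1 UMI among the 6 excluded genes was all that kept them out. The libraries at 3 and 14 dpi had 36 barcodes in common, 1 of them that of a member.

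Transcripts typical of Mφ were found in the CD4 T cells of the 3 dpi library, and their levels are given here because many of the genes that were lower at 14 dpi were also genes of myeloid cells. Across the 18 markers of Mφ and monocytes, the summed level in CD4 T cells came to 19475 CPM in the 3 dpi library and 5825 CPM in the 14 dpi library. The sum at 3 dpi includes 3 mixed barcodes rich in these markers. Some of these genes, such as Ly6c2 and Ccr2, are also T cell genes. The defining marker Csf1r was at 0 in both by the rule, and Mrc1 was at 0 at 14 dpi. Spp1, which encodes osteopontin and is a leading transcript of Mφ in the lesion, was the most abundant of them at 3 dpi with 7618 CPM in CD4 T cells (3933 CPM without the 3 mixed barcodes described next), against 4403 CPM in CD8 T cells, 4520 CPM in B cells (Cd79a-positive cells) and 27024 CPM in Csf1r-positive cells. At 14 dpi, Spp1 stood at 97.6 CPM in CD4 T cells and at 2804 CPM in Csf1r-positive cells. The level of Spp1 in 3 classes of lymphocytes thus lay within a 2-fold range at each time, far below that of the Csf1r-positive cells. In the median CD4 T cell, markers of Mφ and monocytes, microglia and neutrophils together took 1.44% of the UMIs at 3 dpi and 0.659% at 14 dpi.

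In 3 members of the 3 dpi library these myeloid markers took 7.83%, 15.7% and 10.7% of the UMIs, and the highest share at 14 dpi was 1.74%. These 3 barcodes had 13810, 14255 and 19223 UMIs, contributed 5.90% of the summed counts and held 3139 of the 6105 Spp1 UMIs. They are called mixed barcodes below. Among the values that lean on them, those of Spp1, Ccl7, Hmox1, Pkm, Bcl6 and Ifngr2 are given with and without them. Without them, the log2 ratios of 14 dpi over 3 dpi of Gata3, Lat and Ctla4 were 0.99, 0.93 and 0.97, no longer 2-fold. Other values below, and the counts of genes past 2-fold, include them unless stated. Scrublet, a doublet caller, placed 7 of the 164 members at 3 dpi and 0 of the 166 at 14 dpi among the likely doublets, and none was removed for the values below.

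CD4 T cells made up 1.72% (1.47 to 2.003) of the 9528 filtered cells at 3 dpi and 1.53% (1.30 to 1.77) of the 10879 at 14 dpi. In sham ActD they were 8 of 2203 cells, or 0.363% (0.157 to 0.714). In sham standard there were 0 of 5736, which allows a share of up to 0.0523% of cells that meet the rule. There, 10 barcodes had at least 2 CD3 UMIs and a Cd4 UMI, and all 10 had a Csf1r UMI. For 4 of them, Csf1r was the only excluded gene with a UMI. CD8 T cells, chosen by the same rule with Cd8a or Cd8b1 in the place of Cd4, were 107 cells at 3 dpi and 207 at 14 dpi, or 1.12% and 1.90%. CD4 T cells were therefore 60.5% (54.4 to 66.4) of the CD4 and CD8 T cells at 3 dpi and 44.5% (39.4 to 49.7) at 14 dpi. T cells with no UMI of either coreceptor, called double-negative below, were 99 and 136. Shares of a sort count cells in relation to the other CD45+ cells, and not cells in the tissue.

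**Figure D1:**
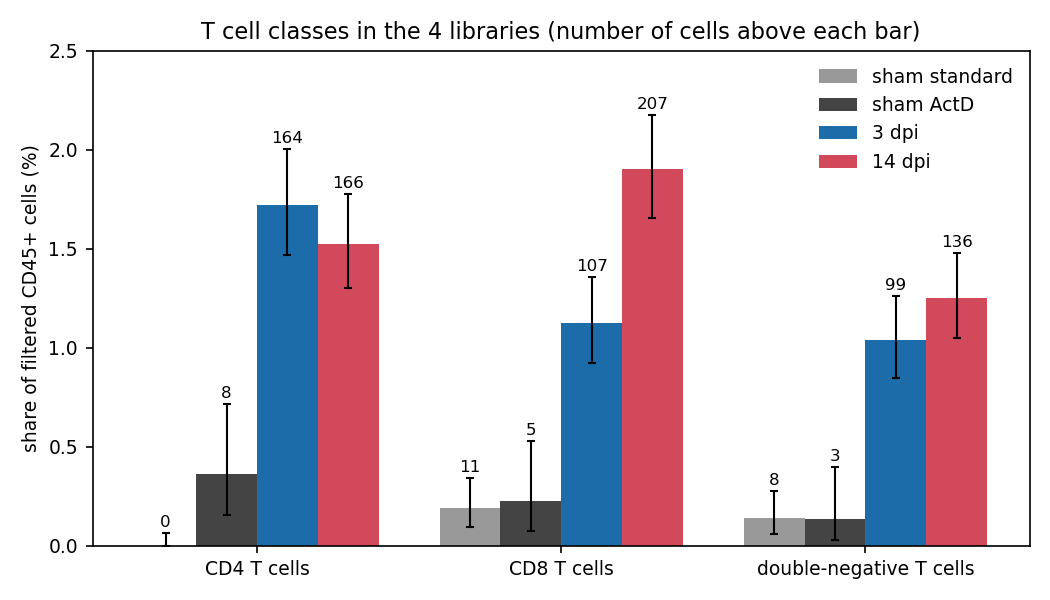
Share of the filtered cells of each library (%) that were CD4, CD8 or double-negative T cells, with exact Clopper-Pearson 95% intervals as error bars and the number of cells above each bar. The CD4 bars of 3 dpi (164 cells) and 14 dpi (166 cells) overlap within their intervals, while the CD8 bar is higher at 14 dpi (207 cells) than at 3 dpi (107 cells).

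To ask how CD4 T cells at 14 dpi differed from those at 3 dpi, the summed counts of the libraries were compared gene by gene. Of 7010 genes with at least 20 UMIs in the 2 sums, 621 (8.86%) were at least 2-fold higher and 480 (6.85%) at least 2-fold lower at 14 dpi. The balance rested on the scaling, with 358 higher and 639 lower by TMM and 367 and 634 by median-of-ratios scaling, which both lowered every ratio by about 0.20. Over all these genes the ratio of 14 dpi over 3 dpi had a median of 0.19 on the log2 scale, the scale of every ratio below. The 2 directions differed in where their genes were most abundant. Among the 4114 genes that were at least as high in CD4 T cells as in Csf1r- and Csf3r-positive myeloid cells, 486 (11.8%) were higher and 109 (2.65%) lower, whereas among the 2896 genes that were higher in the myeloid cells 135 (4.66%) were higher and 371 (12.8%) lower. The level was compared in the library where the gene was higher in CD4 T cells, so the ratio itself decided which library was used, and the split is a description only. Of the 2398 genes that were at least as high in CD4 T cells in both libraries (chosen after seeing the data), 231 were higher and 36 lower.

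The 10 lowest ratios among genes with at least 100 UMIs belonged to genes that myeloid cells express more than T cells, among them Ccl7, Thbs1, Hmox1, Tgfbi, Pf4, Cxcl2, Ccl9, Spp1 and Fn1. Ccl7, a chemokine for monocytes, had 130 UMIs in CD4 T cells at 3 dpi and 0 at 14 dpi, at least 46.5-fold lower against the 3 UMIs that a count of 0 allows, and at least 27.4-fold lower, with 72 UMIs at 3 dpi, without the 3 mixed barcodes. Hmox1, the haem oxygenase, had 565 and 4 UMIs, and 386 UMIs at 3 dpi without the 3 mixed barcodes. Spp1 was lower by 6.28 (5.98 to 6.61) on the log2 scale, and by 5.32 without the 3 mixed barcodes. In the Csf1r-positive cells of the same libraries, Hmox1 stood at 3945 and 99.96 CPM at 3 and 14 dpi. How much of these levels the T cells had themselves transcribed was not tested.

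**Figure D2:**
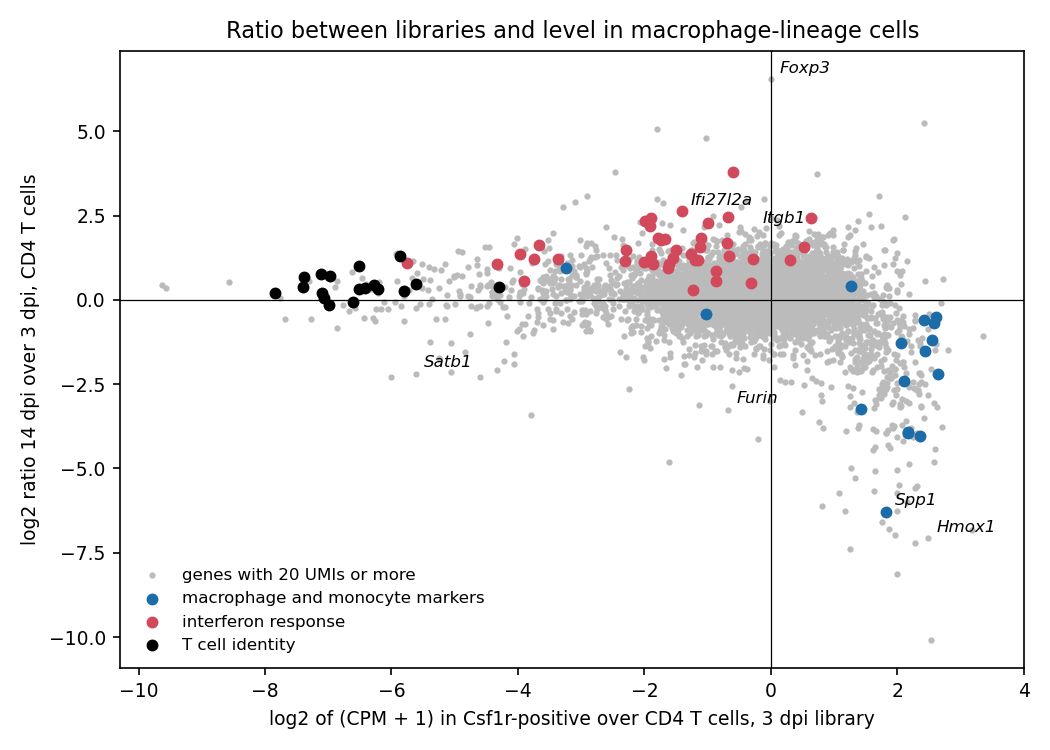
Log2 ratio of 14 dpi over 3 dpi in CD4 T cells (vertical axis) against the log2 ratio of the level in Csf1r-positive over CD4 T cells of the 3 dpi library (horizontal axis, 1 CPM added), 1 point per gene with at least 20 UMIs. Markers of Mφ and monocytes, Hmox1 and Spp1 lie at the lower right, interferon response genes above 0 and mostly left of the vertical line; both axes use the 3 dpi levels of the CD4 T cells, so they are not independent.

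Of the 21 gene lists, that of the response to interferon had the highest median ratio. In the list of 42 genes, 41 had at least 20 UMIs, 35 of these were at least 2-fold higher at 14 dpi and none was 2-fold lower, against 8.86% and 6.85% of all genes tested. All 41 had a ratio above 0, and their median was 1.30. Interferons act through JAK kinases and STAT factors on a common set of antiviral genes, and the levels of those genes are a usual readout of exposure to them. Ifi27l2a, a small interferon-inducible membrane protein (chr12:103442167-103443680, minus strand, mm10), had 477 UMIs in 98 of 164 cells at 3 dpi and 3197 UMIs in 153 of 166 cells at 14 dpi, or 595 and 3714 CPM, a log2 ratio of 2.64 (2.502 to 2.78). The ratio of Ifi27l2a ran from 1.73 to 3.65 over 19 other settings. With every cell thinned to 1000 UMIs, Ifi27l2a was found in 29.3% of cells at 3 dpi and in 78.3% at 14 dpi.

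Sensors, modifiers and effectors of the response shared the direction. Isg15, a ubiquitin-like modifier, stood at 136 and 468 CPM, 1.78 (1.47 to 2.10). The effectors Ifit1 and Ifit3 had ratios of 2.18 and 2.33, Rsad2 (viperin) 2.44, and the RNA sensors Ddx58 and Ifih1 1.83 and 1.30. Ly6a, the antigen Sca-1, had 595 CPM at 3 dpi and 1538 CPM at 14 dpi. Ly6e, the most abundant gene of the list at 3 dpi, was also the least different, with 1054 and 1298 CPM and a ratio of 0.30 (0.17 to 0.43). Socs1, which is not on the list and inhibits cytokine and interferon signalling, had 21 UMIs in 18 cells and 156 UMIs in 73 cells, a ratio of 2.76 (2.13 to 3.52).

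In 1 of the 2 uninjured libraries, sham ActD, the same genes were close to their level at 14 dpi, and in sham standard, which held no CD4 T cell, they were low in the other classes. Their summed level was 4991 (4838 to 5148) CPM in CD4 T cells at 3 dpi, 13693 (13447 to 13942) CPM at 14 dpi, and 12074 (11221 to 12975) CPM in the 8 CD4 T cells of sham ActD. Ifi27l2a stood at 3792 (3320 to 4311) CPM in those 8 cells, in each of which it was found. In CD8 T cells the sums were 2206 CPM in sham standard (11 cells), 3770 CPM at 3 dpi, 13096 CPM in sham ActD (5 cells) and 8775 CPM at 14 dpi. In Csf1r-positive cells they were 2372, 1686, 6400 and 6388 CPM in that order. The libraries with software version 3.0.1 were thus low and those with version 3.1.0 high in CD8, double-negative and Csf1r-positive cells and, with no sham standard cell to compare, in CD4 T cells. In Cd79a-positive cells, with 2974, 3573, 11766 and 3854 CPM, the 14 dpi library was not set apart. A difference in time after injury and one in the handling of the libraries cannot be told apart here.

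**Figure D3:**
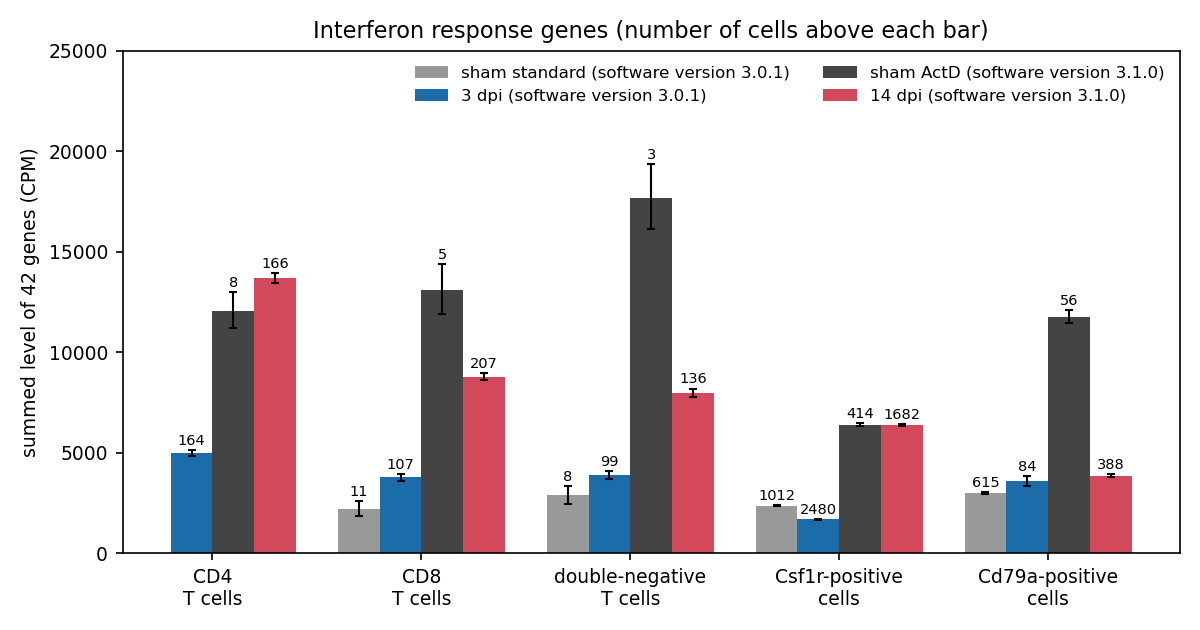
Summed level (CPM) of the 42 interferon response genes in 5 classes of cells and the 4 libraries, with exact Poisson 95% intervals as error bars and the number of cells above each bar; sham standard held no CD4 T cell. The libraries of software version 3.1.0 (sham ActD and 14 dpi) are above those of version 3.0.1 (sham standard and 3 dpi), least so for 14 dpi in Cd79a-positive cells.

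Cells of the 14 dpi library differed widely among themselves. The interferon response genes took a median of 0.894% of the UMIs of a CD4 T cell at 14 dpi, with quartiles of 0.599% and 1.84% and a highest value of 7.25%. At 3 dpi the median was 0.348%, with quartiles of 0.248% and 0.457% and a highest value of 3.23%, so that the lower quartile at 14 dpi was above the upper quartile at 3 dpi. The 5 cells with the most UMIs of the list held 19.95% of them at 3 dpi and 12.9% at 14 dpi. Without Ifi27l2a, the sum at 14 dpi was 9979 CPM.

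The promoters of many of these genes carry the interferon-stimulated response element, to which a complex with IRF9 binds. The letters GAAA, any 2 bases and GAAA again were searched on both strands of RefSeq promoters (GRCm38.p6, 250 bases before to 50 after the start), with overlapping matches counted. Of the 33 interferon response genes with a promoter in that table, 18 (54.5%) held the motif, as did 11 of 22 interferon-γ response genes, 2 of 22 (9.09%) immediate early genes and 0 of 8 T cell identity genes, against 1079 of 27025 genes overall (3.99%). The abundant genes Ifi203, Bst2 and Isg15, with 1, 2 and 3 matches, show how the element is laid out, and the matched bases are in capitals with 20 bases on either side, each on the minus strand of its chromosome. A match describes the sequence and is not evidence of binding in these cells.
Ifi203, chr1:173942498-173942547, match 35 bases before the start: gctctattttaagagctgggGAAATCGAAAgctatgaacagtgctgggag
Bst2, chr8:71537567-71537622, matches 130 and 124 bases before the start: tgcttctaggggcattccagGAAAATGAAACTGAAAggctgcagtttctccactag
Isg15, chr4:156200855-156200916, matches from 78 to 66 bases before the start: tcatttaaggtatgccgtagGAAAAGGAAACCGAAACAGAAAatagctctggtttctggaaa
In CD4 T cells, the log2 ratios of 14 dpi over 3 dpi of these genes were 1.21 for Ifi203, 1.56 for Bst2 (tetherin, which holds virus particles at the cell surface) and 1.78 for Isg15.

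Genes that interferon-γ induces most were higher at 14 dpi as well. Of 27 measured, 16 were at least 2-fold higher and none 2-fold lower, against 8.86% and 6.85% of all genes, with a median of 1.06. They comprise the GTPases that attack intracellular pathogens and the machinery that loads MHC class I. Iigp1, an immunity-related GTPase, had 8 UMIs in 5 cells and 127 UMIs in 41 cells, the highest ratio of any named gene with 100 UMIs, at 3.80 (2.86 to 5.13), which ran from 1.53 to 5.28 over 19 other settings. Irgm1 followed with 2.76 and Gbp2 with 1.58. The heavy chains H2-K1 and H2-D1 went from 1505 to 3115 CPM and from 983 to 2625 CPM, ratios of 1.05 (0.95 to 1.15) and 1.42 (1.30 to 1.54), and their common light chain B2m from 1826 to 3032 CPM, 0.73 (0.64 to 0.83). The list summed to 7074 CPM at 3 dpi, 13728 CPM at 14 dpi and 15898 CPM in the CD4 T cells of sham ActD, so that 3 dpi was again the lowest of the 3 libraries.

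Foxp3 UMIs were found in a small set of CD4 T cells at 14 dpi. Foxp3 (chrX:7573644-7595245, plus strand), their lineage factor, had no UMI in 164 CD4 T cells at 3 dpi, which allows a share of up to 1.83% of cells with a captured UMI and sets no limit on cells that express the gene, and 50 UMIs in 15 of 166 cells at 14 dpi, a share of 9.04%. Its level at 14 dpi was 58.1 CPM, at least 15.5-fold higher than the 3 UMIs that a count of 0 allows at 3 dpi. After thinning to 1000 UMIs per cell the share at 14 dpi was 4.82%. No Foxp3 UMI was found in 207 CD8 T cells or 1682 Csf1r-positive cells at 14 dpi. Over all filtered cells, with or without CD3 and Cd4 UMIs, 5 of 9528 cells at 3 dpi and 55 of 10879 at 14 dpi had a Foxp3 UMI. Of the 15 cells, 12 had a UMI of Ikzf2, 10 of Ctla4 and 6 of Izumo1r, against 37, 44 and 44 of all 166 cells. With 15 cells, fewer than the 20 set for a separate account, the Foxp3-positive cells were not compared further.

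Of the genes usual in regulatory T cells, 15 of 24 were measured, of which 6 were at least 2-fold higher at 14 dpi and none 2-fold lower, against 8.86% and 6.85% of all genes, with a median of 0.56. Izumo1r (folate receptor 4) had 2 UMIs in 2 cells at 3 dpi and 90 UMIs in 44 cells at 14 dpi, a ratio of 5.07 (3.49 to 8.46). The ratio of Izumo1r ran from 2.94 to 6.02 over 19 other settings. Ikzf2, which encodes Helios, had 14 UMIs in 7 cells and 115 UMIs in 37 cells, a ratio of 2.89 (2.13 to 3.85) that ran from 0.88 to 6.68 over 19 other settings. Both were present in sham ActD, where Izumo1r was found in 4 and Ikzf2 in 3 of the 8 CD4 T cells. Ctla4, an inhibitory receptor, went from 43.7 to 91.8 CPM, 1.06 (0.48 to 1.69), while Il2ra, the high-affinity IL-2 receptor chain, had 26.2 and 13.9 CPM, -0.89 (-2.07 to 0.18). Klrg1 had 3 and 18 UMIs. Tnfrsf9 had 4 and 20, but its ratio was -0.34 in Foxp3-negative cells alone. Tnfrsf18 (GITR) was at 218 and 210 CPM. Izumo1r and Ikzf2 were thus found in more cells than Foxp3, and 15 of the 44 Izumo1r-positive cells at 14 dpi had a UMI of Ikzf2.

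Among genes of naive and central memory cells, 2 of 15 were at least 2-fold higher and 2 at least 2-fold lower, near the 8.86% and 6.85% of all genes, with a median of -0.19. Satb1 (chr17:51736187-51833290, minus strand), a chromatin organiser that is high in naive cells, had 159 UMIs in 96 cells at 3 dpi and 37 UMIs in 28 cells at 14 dpi, or 198 and 43.0 CPM, a ratio of -2.19 (-2.76 to -1.68). In Csf1r-positive cells Satb1 was at 3.06 and 7.35 CPM. In the 8 CD4 T cells of sham ActD it stood at 195 (101 to 341) CPM, in 2 cells. Igfbp4 had 39 UMIs in 11 cells and 1 UMI in 1 cell. Il7r, the IL-7 receptor on which resting T cells depend, was at 479 and 490 CPM, 0.03 (-0.17 to 0.24). Tcf7 and Klf2, factors of quiescence and recirculation, were higher by 0.53 (0.16 to 0.92) and 0.57 (0.33 to 0.80), and Ccr7, which guides cells into lymph nodes, was low at both times, with 24 and 16 UMIs.

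Furin (chr7:80388585-80405436, minus strand), a protease that matures TGF-β1 and is induced by T cell activation, had the lowest ratio of the genes with at least 100 UMIs that were at least as high in T cells as in myeloid cells. It went from 226 UMIs in 79 cells to 25 UMIs in 18 cells, or from 282 to 29.0 CPM, a ratio of -3.25 (-3.94 to -2.68). In CD8 T cells its ratio was -0.98 (-1.84 to -0.09), with 45.5 and 23.1 CPM, and in double-negative cells the levels were 339 and 75.4 CPM. The next of these genes were Cenpf, Satb1, Hist1h1d, Mki67, Cirbp, Gramd1a, Plac8, Rsrc1 and Cnot3, with ratios between -2.64 and -0.86. Over the other settings, the ratios of Cenpf, Plac8 and Gramd1a came as near to 0 as -0.008, -0.072 and -0.22, and that of Mki67 changed sign.

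**Figure D4:**
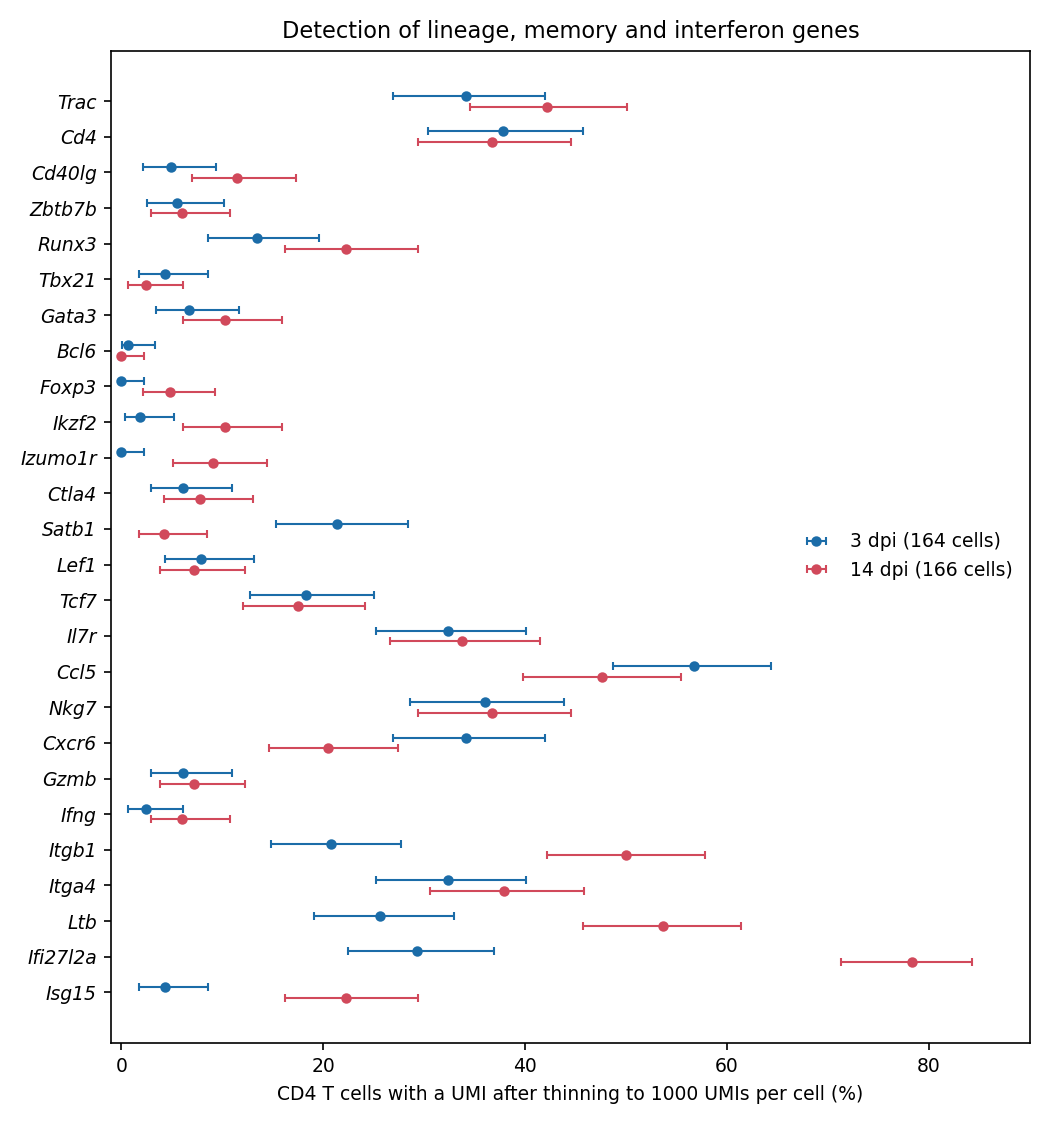
Share (%) of CD4 T cells with at least 1 UMI of each gene after every cell was thinned to 1000 UMIs, at 3 dpi (blue, 164 cells) and 14 dpi (red, 166 cells), with exact Clopper-Pearson 95% intervals. Ifi27l2a, Isg15, Itgb1 and Ltb are higher and Satb1 is lower at 14 dpi, beyond the intervals, while Cd4, Tcf7, Il7r, Nkg7 and Gzmb overlap closely.

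Genes of Th1 and cytotoxic cells summed to 5286 CPM at 3 dpi and 5044 CPM at 14 dpi, with Ccl5 the most abundant at both times. Ccl5, a chemokine of effector and memory T cells, stood at 2635 CPM in 122 cells at 3 dpi and at 2192 CPM in 96 cells at 14 dpi, and Nkg7, a cytotoxic granule protein, at 517 and 668 CPM. Over 18 genes measured, 3 were at least 2-fold higher, 2 at least 2-fold lower, and the median was 0.21, against 8.86%, 6.85% and a median of 0.19 over all genes. Tbx21, which encodes T-bet, was found in 18 and 27 cells and Ifng in 18 and 34 cells, with ratios of 0.42 (-0.44 to 1.33) and 0.72 (0.04 to 1.46) that went as low as -0.030 and -0.28 over 19 other settings. Gzmb went from 39.9 to 110 CPM, with 22 and 26 positive cells, a ratio of 1.45 that was -0.18 in male cells, and Gzma from 54 to 5 UMIs. Cxcr6, a receptor of resident effector cells, was lower by 0.58 (0.33 to 0.84) in CD4 T cells and higher by 1.41 (1.04 to 1.82) in CD8 T cells.

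The other programmes rested on few UMIs. Gata3, the Th2 factor that regulatory cells of tissues also use, was found in 34 cells at 3 dpi and 62 cells at 14 dpi and went from 58.6 to 124 CPM, a ratio of 1.08 (0.58 to 1.61). Ccr4 had 2 and 21 UMIs. Il4ra was lower, with 51 and 19 UMIs. The Th2 list (5 of 11 measured) had a median of 0.76, and the list of tissue regulatory cells (9 of 16) a median of 1.08 with 5 genes higher and 1 lower, against 8.86% and 6.85% of all genes. Neither kept its direction throughout, since the Th2 median was -0.23 in male cells and that of the tissue regulatory cells -0.075 with no minimum of UMIs. Il17a, the Th17 cytokine, had UMIs in 0 and 2 cells, Il4 in 0 and 1, Il21 in 1 and 0, Il10 in 2 and 0 and Il2 in 1 and 9 cells. Bcl6, the factor of follicular helper cells, had 13 UMIs in 9 cells at 3 dpi, 7 UMIs without the 3 mixed barcodes, and none at 14 dpi. The Th17 list (5 of 13 measured) and the follicular list (4 of 9) had medians of 0.29 and 0.52. Cytokine transcripts were therefore too sparse at this depth to type single cells.

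Adhesion genes gave 1 clear difference. Itgb1, the β1 integrin chain that pairs with α4 as VLA-4 in the entry of T cells into the nervous system, had 179 UMIs in 93 cells and 830 UMIs in 144 cells, or 223 and 964 CPM, a ratio of 2.11 (1.88 to 2.35). After thinning, Itgb1 was found in 20.7% of cells at 3 dpi and in 83 of 166 at 14 dpi. Its partner Itga4 was higher by 0.99 (0.77 to 1.22). In the CD4 T cells of sham ActD, Itgb1 stood at 765 (562 to 1017) CPM. Of the 18 homing genes measured, only Itgb1 was at least 2-fold higher and only Cx3cr1, a receptor abundant on myeloid cells, at least 2-fold lower, no more than the 8.86% and 6.85% of all genes, and the median was 0.27.

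Among cytokines and ligands (15 of 28 measured, 2 higher and 4 lower, against 8.86% and 6.85% of all genes, median -0.03), Ltb and Xcl1 were higher at 14 dpi. Ltb encodes lymphotoxin-β, which organises lymphoid tissue, and stood at 326 CPM at 3 dpi, 853 CPM at 14 dpi and 993 CPM in sham ActD, a ratio of 14 dpi over 3 dpi of 1.39 (1.18 to 1.60). Xcl1, a ligand for dendritic cells, had 1 UMI at 3 dpi and 44 UMIs in 19 cells at 14 dpi. The 4 lower genes were Spp1, Ccl3, Ccl4 and Tnf, which myeloid cells express as well. Of 29 cytokine receptor and STAT genes, 3 (Socs1 and Il6ra among them) were higher and 3 (Il4ra, Tnfrsf1a and Ifngr2) lower, with a median of 0.27, shares near the 8.86% and 6.85% of all genes. Ifngr2 had 14 and 7 UMIs, and 11 and 7 without the 3 mixed barcodes, a ratio of -0.81 (-2.45 to 0.66) that was no longer 2-fold. The interferon receptor genes Ifnar1, Ifnar2 and Ifngr1 had ratios of 0.20, 0.27 and 0.00.

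T cell identity genes lay at the background of genes at T cell level. All 18 were measured and at that level, 2 were at least 2-fold higher, and their median was 0.36, against 11.8% higher and a median of 0.34 over the 4114 genes of that level. Cd5, which dampens receptor signalling, was higher by 1.31 (0.92 to 1.73), Lat, the adaptor below the receptor, by 1.01 (0.75 to 1.27), and Trac by 0.69 (0.48 to 0.89). Thy1 was at 499 and 445 CPM. Activation and costimulation genes had a median of -0.10, with 2 of 17 higher and 2 lower, near the 8.86% and 6.85% of all genes; Cd69, an early activation antigen that also keeps cells in tissue, was at 459 and 389 CPM, and Icos at 265 and 180 CPM. Of 9 inhibitory receptor genes, 4 were higher and 2 lower, against 8.86% and 6.85% of all genes, and the median was 0.18. Tox (9 and 40 UMIs), Btla and Ctla4 were among the higher. The lower were Lgals3 and Havcr2, both also genes of myeloid cells. Ctla4 was past 2-fold by little, and its ratio was 0.15 at the lowest over 19 other settings. Genes of survival and death had a median of -0.13, with 1 of 17 higher and 1 lower, near the shares of all genes.

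Proliferation genes rested on a few cells, and their direction turned with the choice of cells. Of 21 genes, 7 were at least 2-fold lower at 14 dpi and none higher, against 6.85% and 8.86% of all genes, and the median was -0.52. The median was 0.32 without cells holding UMIs of Itgam or of B and NK cell markers, and 0.40 with up to 1 UMI of Csf1r or Csf3r allowed. Mki67, which marks cycling cells, had 186 UMIs in 26 cells at 3 dpi and 83 UMIs in 21 cells at 14 dpi, a ratio of -1.26 (-1.66 to -0.89), which became 0.0046 and 0.00409 under the same 2 choices. A single cell at 3 dpi held 78 of the 186, and the 5 highest held 143. Cenpf had 101 UMIs, 64 of them in 1 cell, and 17 UMIs. After thinning to 1000 UMIs, Mki67 was found in 7.93% of cells at 3 dpi and in 7.23% at 14 dpi. The shares of cells with Mki67 were thus close.

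Of the immediate early genes, which dissociation can induce, 23 were measured, 11 were at least 2-fold lower at 14 dpi and none higher, against 12.8% and 4.66% of the genes higher in myeloid cells, to which 21 of the 23 belonged. Their median was -0.91, which was -0.22 without the cells over 1% of myeloid marker UMIs (16 and 140 cells left at 3 and 14 dpi). Jun stood at 407 and 70.9 CPM and Fos at 493 and 143 CPM, whereas Junb (505 and 630 CPM) and Jund (616 and 583 CPM) differed by less than 2-fold. The list summed to 5021 CPM at 3 dpi, 3271 CPM at 14 dpi and 2473 CPM in the CD4 T cells of sham ActD, against 7678 and 2486 CPM in the Csf1r-positive cells of 3 dpi and 14 dpi. The other 2 genes, as high in CD4 T cells as in myeloid cells, had ratios of 0.13 and 0.75. The part of myeloid RNA in these levels was not tested. Glycolysis and hypoxia genes (18 of 21 measured) had a median of -0.49, with 6 lower and none higher, against 6.85% and 8.86% of all genes. Among the lower were Hk2 (59.9 and 9.29 CPM) and Pkm (527 and 251 CPM). Without the 3 mixed barcodes, Pkm was at 473 CPM at 3 dpi, and its ratio of -0.91 was no longer 2-fold. At T cell level were 5 of the 18, with a median of 0.01.

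Heat shock genes were split, with 4 of 17 higher and 4 lower, against 8.86% and 6.85% of all genes, and a median of 0.32. The chaperones Hsph1, Dnajb1, Dnaja1 and Hspd1 were higher, Hsph1 by 2.01 (1.40 to 2.70), and Hmox1, Mt1, Mt2 and Hspa1a lower. Of 13 genes of the glucocorticoid response, 4 were lower and none higher, against 6.85% and 8.86% of all genes, with a median of -0.38. Sgk1 had 92 and 28 UMIs. None of the 4 lower genes was among the 5 genes of the list at T cell level, whose median was 0.03.

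**Figure D5:**
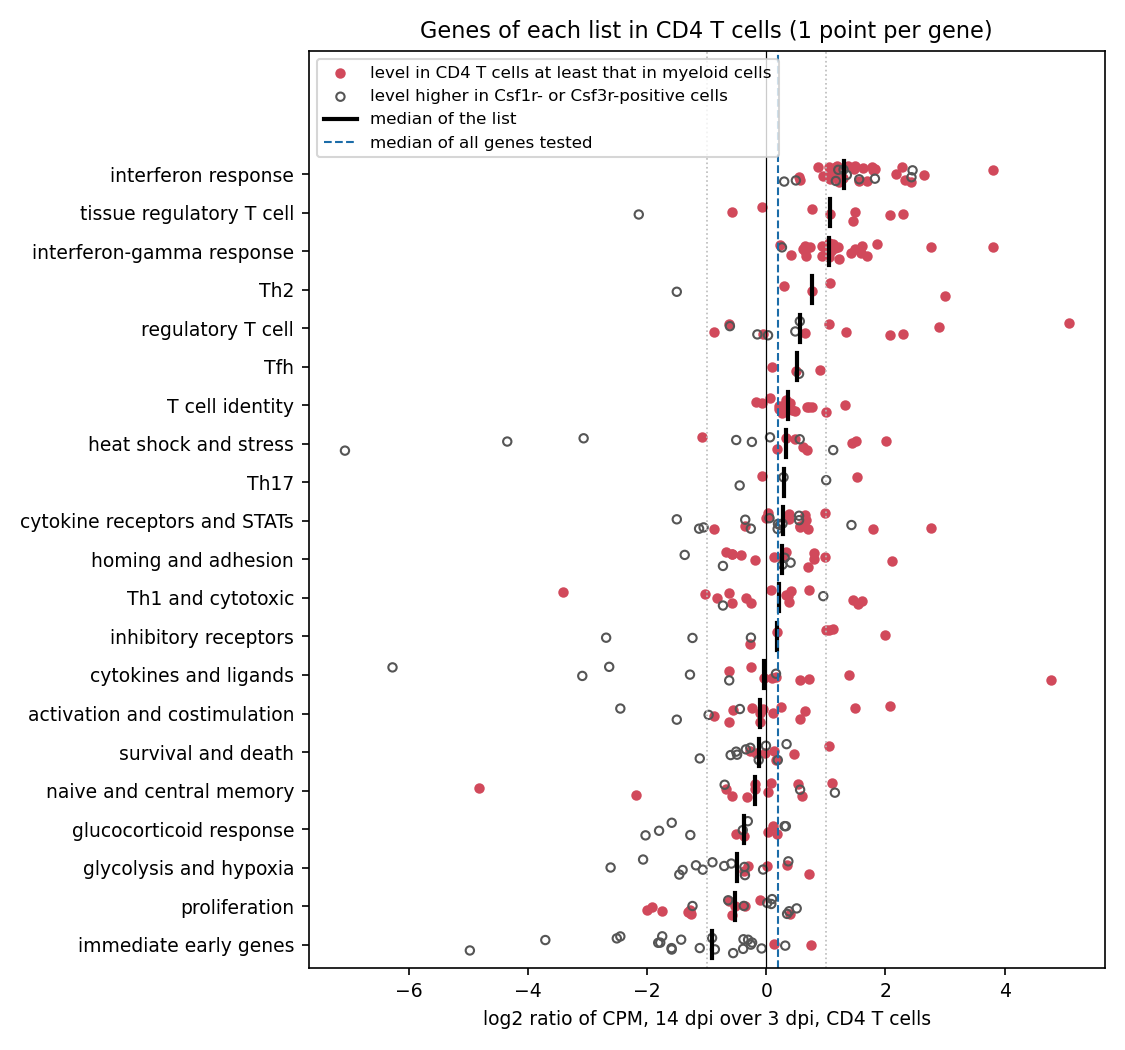
Log2 ratios of 14 dpi over 3 dpi of the genes of each list in CD4 T cells (1 point per gene with at least 20 UMIs), with the median of each list. The medians of the interferon lists lie to the right of the median of all genes (0.19). That of the proliferation list lies left of 0, a side that turned with the choice of cells.

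CD8 T cells of the same libraries served to show which differences were shared, with the reservation that both classes come from the same 2 libraries. Of 6991 genes, 713 (10.2%) were at least 2-fold higher and 382 (5.46%) lower at 14 dpi in CD8 T cells. The medians of the interferon list were 1.30 in CD4 and 1.22 in CD8 T cells, those of the interferon-γ list 1.06 and 0.97, and those of the immediate early genes -0.91 and -1.41. Itgb1 (2.11 and 1.69), Ltb (1.39 and 1.62), Ifi27l2a (2.64 and 2.17) and Igfbp4 (-4.82 and -4.17) had the same direction in both. Klf2, in contrast, was higher by 0.57 (0.33 to 0.80) in CD4 and lower by 1.06 (0.78 to 1.34) in CD8 T cells, and S1pr1, its target and the exit receptor from tissue to lymph, had ratios of -0.19 and -1.30. No test of these differences could be made with 1 library per time.

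Within a library, CD4 and CD8 T cells can be compared without the time difference. At 3 dpi, 299 of 6054 genes (4.94%) were at least 2-fold higher and 134 (2.21%) lower in CD4 than in CD8 T cells, and at 14 dpi 228 (3.03%) and 234 (3.11%) of 7524. Of the Th1 and cytotoxic genes, 7 of 18 at 3 dpi and 10 of 20 at 14 dpi were at least 2-fold lower in CD4 T cells, 3 and 0 were at least 2-fold higher, and the medians were -0.70 and -0.99. Ccl5 was lower by 1.89 (1.81 to 1.96) and 1.48 (1.41 to 1.55), and Gzma by 4.07 and 4.59. Regulatory T cell genes had medians of 0.80 at 3 dpi and 1.34 at 14 dpi. At 3 dpi, 5 of 10 were at least 2-fold higher and 1 at least 2-fold lower in CD4 T cells. At 14 dpi, 8 of 15 were at least 2-fold higher and none lower, with 12 of the 15 above 0. Maf, a factor of IL-10- and IL-4-producing helper cells, was higher by 1.87 (1.31 to 2.52) and 3.28 (2.78 to 3.86). Proliferation genes had medians of 1.02 at 3 dpi and -0.39 at 14 dpi.

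Receptor segments were read in few cells, since 3′ libraries seldom reach them. A Trbv segment was found in 33 cells at 3 dpi and 27 at 14 dpi and a Trav segment in 26 and 32. In each library, 11 of 35 Trbv segments were seen, Trbv2 in 10 cells at 3 dpi and Trbv13-2, Trbv20 and Trbv26 in 4 cells each at 14 dpi. In sex, 66 cells were female and 28 male at 3 dpi and 71 and 49 at 14 dpi by Xist and Y-linked genes. UMIs of both kinds were found in 17 of 164 cells at 3 dpi and 4 of 166 at 14 dpi, and of neither in 53 and 42.

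Besides the markers of Mφ and monocytes, at 19475 and 5825 CPM, those of other classes were found as well. The 3 mixed barcodes are included in every sum at 3 dpi. The markers of CD4 T cells, which the rule used in part, came to 1159 and 1643 CPM at 3 and 14 dpi. The summed levels of the other classes at these times were 519 and 338 CPM for microglia, 419 and 1057 CPM for neutrophils (S100a9 196 and 465 CPM, Csf3r at 0 by the rule), 1320 and 1499 CPM for dendritic cells, 1162 and 403 CPM for NK and NKT cells (Tyrobp, which myeloid cells share, 555 and 195 CPM, Ncr1 at 0), and 1189 and 645 CPM for innate lymphoid cells, a list that includes Il7r. B and plasma cell markers stood at 141 and 272 CPM with Cd79a at 0 by the rule, γδ T cell markers at 8.73 and 13.9 CPM, those of glia and vessels at 156 and 155 CPM, and those of erythroid cells at 1.25 and 8.13 CPM. CD8 T cell markers were at 0 by the rule. The part of other cells in these sums was not tested.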

How the data were processed

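CD45+ cells of 4 libraries (sham standard, sham ActD, 3 dpi and 14 dpi) were analysed from the UMI counts per gene and barcode that the authors deposited, made with Cell Ranger against mm10 per the labels, without normalization. Of the 31053 gene identifiers, 31011 were found in GENCODE M21. Counts of the CD4 T cells were summed per library and scaled to CPM. Log2 ratios had 0.5 UMIs added, for genes with at least 20 UMIs. Intervals at 95% were exact (Poisson, conditional Poisson or Clopper-Pearson), and a count of 0 allows 3 counts. No test was made, with 1 library per group. The scripts were tested on simulated data. Some genes are not reported here.

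The cells, the 21 gene lists and 12 marker lists were chosen with earlier results of these data known. Genes named are the 4 with most UMIs and the 2 with the largest ratios per list, the 10 largest and 10 smallest ratios among genes with 100 UMIs (all genes, and those at T cell level), lineage genes, and some others of the lists, chosen after their values were seen. T cell level means a CPM at least that of Csf1r- and Csf3r-positive cells, in the library where the gene was higher in CD4 T cells. The classes positive for Csf1r, Csf3r or Cd79a had at least 2 UMIs of that gene and no CD3 UMI. Alternatives covered selection, scaling, filters, sex and doublets (scanpy 1.11.5 with Scrublet, edgeR 4.0.16, DESeq2 1.42.0 for scaling, R 4.3.3, Python 3.11.15).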

Additional observations from a re-analysis of the deposited data

Results flagged for a closer look

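Several genes and lists lay on opposite sides of 0 in CD4 and CD8 T cells of the same libraries in the log2 ratio of 14 dpi over 3 dpi, and none of these differences was tested. Cenpf was at -2.64 in CD4 and 3.60 in CD8 T cells, Mki67 at -1.26 and 1.43, and Ube2c at -1.92 and 2.44. The median of the proliferation list was -0.52 and 0.99. The values in CD4 T cells depended on the choice of cells. Without cells holding UMIs of Itgam or of B and NK cell markers, Cenpf was at -0.008, Mki67 at 0.0046 and the list at 0.32 in CD4 T cells, and with up to 1 UMI of Csf1r or Csf3r allowed Mki67 was at 0.00409 and the list at 0.40. In CD4 T cells at 3 dpi, 1 cell held 64 of the 101 Cenpf UMIs, and in CD8 T cells Cenpf had 1 UMI at 3 dpi and 49 UMIs in 9 cells at 14 dpi. Il6ra, the IL-6 receptor, was at 1.43 in CD4 and -1.91 in CD8 T cells. Klrg1 was at 2.30 and -1.79, on 3 and 18 UMIs in CD4 T cells. The median of the Th2 list was 0.76 and -1.12, and that of the tissue regulatory T cell list 1.08 and -0.024. In CD4 T cells, the Th2 median was -0.23 in male cells and the tissue regulatory T cell median -0.075 with no minimum of UMIs.

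Foxp3 was also found outside the CD4 T cells. Among double-negative T cells, 8 of 136 (5.88%, 2.57 to 11.3) had a Foxp3 UMI at 14 dpi and 0 of 99 at 3 dpi. A single Cd4 UMI sufficed for 65 of the 166 CD4 T cells at 14 dpi, and how many double-negative cells were CD4 T cells in which no Cd4 UMI was captured was not tested.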

How the results depend on the processing

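No paired analysis was possible because each condition was 1 library, and no replicate could be left out. Foxp3-positive cells were not compared with Foxp3-negative cells, so no alternatives were run for that comparison. A setting with Foxp3-negative cells alone was run. The share of CD4 T cells was 1.12% at 3 dpi without cells holding UMIs of Itgam or of B and NK cell markers (the lineage filter), 2.67% and 2.06% at 3 and 14 dpi with up to 1 UMI of Csf1r or Csf3r allowed (chosen after seeing the data), and 19.7% and 13.1% of cells with at least 2 CD3 UMIs. The share with Foxp3 at 14 dpi was 4.82% after thinning. Genes at least 2-fold higher numbered 358 with TMM, 367 with median-of-ratios scaling, which moved all log2 ratios by -0.20, 296 of 4186 with 50 UMIs required and 2109 of 12941 with no minimum; genes lower numbered 217 and 2382 under the last 2, 166 of 2926 in male and 297 of 4296 in female cells, and 318 of 4959 without cells over 1% myeloid marker UMIs, which left 16 and 140 cells. These counts follow in part from the number of genes tested. With genes at T cell level in both libraries (chosen after seeing the data), 231 were higher and 36 lower. The proliferation median was 0.32 with the lineage filter, 0.40 with 1 UMI of Csf1r or Csf3r allowed, 0.39 at T cell level in both, where 1 of its 21 genes was left, -1.13 in male cells and -1.18 without cells over 1% myeloid markers. With genes at T cell level in both libraries, the medians were 1.06 for inhibitory receptors, 1.20 for regulatory T cell genes, 0.18 for glycolysis and 1.43 for heat shock genes. With no minimum of UMIs, Th17 had 1.48 and tissue regulatory T cells -0.075. In male cells, Th2 had -0.23, tissue regulatory T cells 0.39, Nt5e -0.55 and Gzmb -0.18; in female cells, Th1 and cytotoxic genes had -0.45 and Th17 -0.43. Without cells over 1% myeloid markers, immediate early genes had -0.22, Tmem176b -0.37 and Slc16a3 0.33. In Foxp3-negative cells, Th2 had 0.11, tissue regulatory T cells 0.41 and Tnfrsf9 -0.34. Mki67 had 0.0046 with the lineage filter and 0.00409 with 1 UMI of Csf1r or Csf3r allowed. The cause of these shifts was not tested. The medians of the interferon and interferon-γ lists stayed between 0.95 and 1.68 and between 0.59 and 1.17 over 19 alternatives each. The CD4 share of CD4 and CD8 T cells stayed between 59.2% and 64.1% at 3 dpi and between 44.3% and 45.3% at 14 dpi. Foxp3 at 3 dpi was 0 in all 10 alternatives. Alternatives that only removed cells or UMIs could give no other value for it, so they say nothing of its stability. The depth of the 2 sums limits genes under 20 UMIs, cytokines among them.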

Other observations

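Hopx, a homeodomain protein that does not bind DNA and is known from effector memory Th1 cells, was chosen after its values were seen. It was found in 18.3% of CD4 T cells at 3 dpi and in 59.6% at 14 dpi, and after thinning to 1000 UMIs per cell in 3.66% and 21.7%. In CD8 T cells it was found in 28.0% and 58.5%, and after thinning in 8.41% and 19.3%. In sham ActD, 4 of the 8 CD4 T cells had a Hopx UMI, with a level of 195 (101 to 341) CPM. In sham standard, which held no CD4 T cell, a Hopx UMI was found in 4 of 11 CD8 and 3 of 8 double-negative T cells. Time after injury and software version cannot be told apart for it.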
